A study of Canis lupus familiaris with 5 samples.

Results

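A population of fibroblasts marked by ZNF385D, ITGA11 and COL28A1 was examined in single-nucleus RNA sequencing of the canine cephalic vein, a superficial vein of the forelimb that was used here as a graft. Its members were the nuclei with at least 2 unique molecular identifiers (UMIs, each a counted RNA molecule) summed over ZNF385D, ITGA11, COL28A1, NOVA1 and KCNB2. This sum also had to exceed the sums over 3 competing gene sets. The competing sets were C7, TRPM3, ERBB4, ESR1 and CHRDL1 for a second fibroblast class, called C7 nuclei here, SEMA3B, AHNAK2, COL6A2, ZNF469 and PI3 for another, called SEMA3B nuclei, and MYRIP, PTPRB, ALDH1A2 and PALMD for endothelial nuclei. Among the 4163 nuclei of control and distended veins with at least 100 detected features, 327 met the rule, out of 7391 barcodes in the whole series. The matching rules gave 314 C7 nuclei, 406 SEMA3B nuclei and 1469 endothelial nuclei.

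The series held 5 libraries from 2 male mongrel dogs of 25 kg whose age the labels do not give. A control segment of undistended vein was taken from each dog, and each dog also gave a segment distended during a harvest of about 30 minutes with 0.9% saline carrying 60 mg papaverine hydrochloride and 43 mg bivalirudin. Only dog 1 gave a grafted segment, which had been exposed to this same distension, joined end to side to the carotid artery under systemic bivalirudin and collected after 24 hours. All dogs had been anaesthetised with pentothal and isoflurane, nuclei came from snap-frozen tissue, and each condition of each dog was 1 library.

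Fibroblasts make and remodel the collagen and elastic fibres of the vein's outer coat, and they read the state of that matrix through integrins. Integrin alpha 11, the product of ITGA11, pairs with the beta 1 chain to bind fibrillar collagen, and COL28A1 encodes the chain of collagen XXVIII, a minor non-fibrillar collagen best known near peripheral nerve. NOVA1 is an RNA-binding regulator of alternative splicing, KCNB2 is a voltage-gated potassium channel subunit, and ZNF385D is a zinc finger protein whose function is less well described. NOVA1 and KCNB2 are best known from neurons.

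Members were unevenly spread over the libraries. Control dog 1 had 2 members among 773 kept nuclei, or 0.259% (exact Clopper-Pearson 95% interval 0.0313 to 0.931%). Control dog 2 had 35 among 1041, or 3.36% (2.35 to 4.65%). Distended dog 1 had 289 among 2108, or 13.7% (12.3 to 15.3%), and distended dog 2 had 1 among 241, or 0.415% (0.0105 to 2.29%). The library of the distended vein of dog 1 therefore held most of the members, and the libraries of the 2 conditions overlapped. The distended mean exceeded the control mean by 5.25 percentage points, but without distended dog 1 the difference was -1.40 points. With 2 libraries against 2, an exact two-sided permutation test cannot give a p below 0.333, so the shares are values without a test. Among the nuclei of the 3 fibroblast classes together, members made up 9.09%, 20.1%, 34.3% and 12.5% in control dogs 1 and 2 and distended dogs 1 and 2, over 22, 174, 843 and 8 nuclei.

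Depth differed between the libraries. Median UMIs of named genes per kept nucleus were 421, 274, 545.5 and 498 in control dogs 1 and 2 and distended dogs 1 and 2. Median UMIs of named genes per member were 229, 326, 609 and 5617 in control dogs 1 and 2 and distended dogs 1 and 2, and the single member of distended dog 2 stood far above its library's median of 498. After each nucleus was thinned to 300 UMIs, with 237, 591, 178 and 18 shallower nuclei left out in the same order, 0 of 536, 13 of 450, 215 of 1930 and 0 of 223 nuclei met the rule. The share stayed at 2.89% (1.55 to 4.89%) in control dog 2 and 11.1% (9.77 to 12.6%) in distended dog 1. The 2 zeros allow shares of up to 0.686% and 1.64%.

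Over the whole data set, 4 uncharacterised features took 26.5 to 70.4% of the UMIs of the control and distended libraries and 2.98% in the graft, so levels are given as CPM, the UMIs of a gene for each 1000000 UMIs of named genes without them. Of the 4 barcodes that libraries shared, 0 were members, and 0 UMIs fell on the 13 mitochondrial genes. Only control dog 2 (14687 UMIs summed over members) and distended dog 1 (226451 UMIs) held enough members to describe. They are 1 library for each condition and come from different dogs, so dog, distension and depth cannot be told apart. Intervals below cover counting error only.

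The genes that chose the members are given as a description. Members of distended dog 1 held 602 UMIs of ZNF385D, 513 of NOVA1, 288 of COL28A1, 265 of ITGA11 and 237 of KCNB2. Those of control dog 2 held 34, 22, 46, 24 and 27. Members therefore carried all 5 transcripts in both dogs. A nucleus usually showed only a few of them, since 49 members showed 1 of the 5 genes, 121 showed 2, 93 showed 3, 44 showed 4 and 20 showed all 5, with median depths of 451, 517, 656, 770.5 and 1225 UMIs. Across the 327 members, detection of one gene was almost unrelated to detection of another, with phi coefficients from -0.12 to 0.05 over the 10 pairs; the rule itself and the depth that the genes share enter these values.

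**Figure D1:**
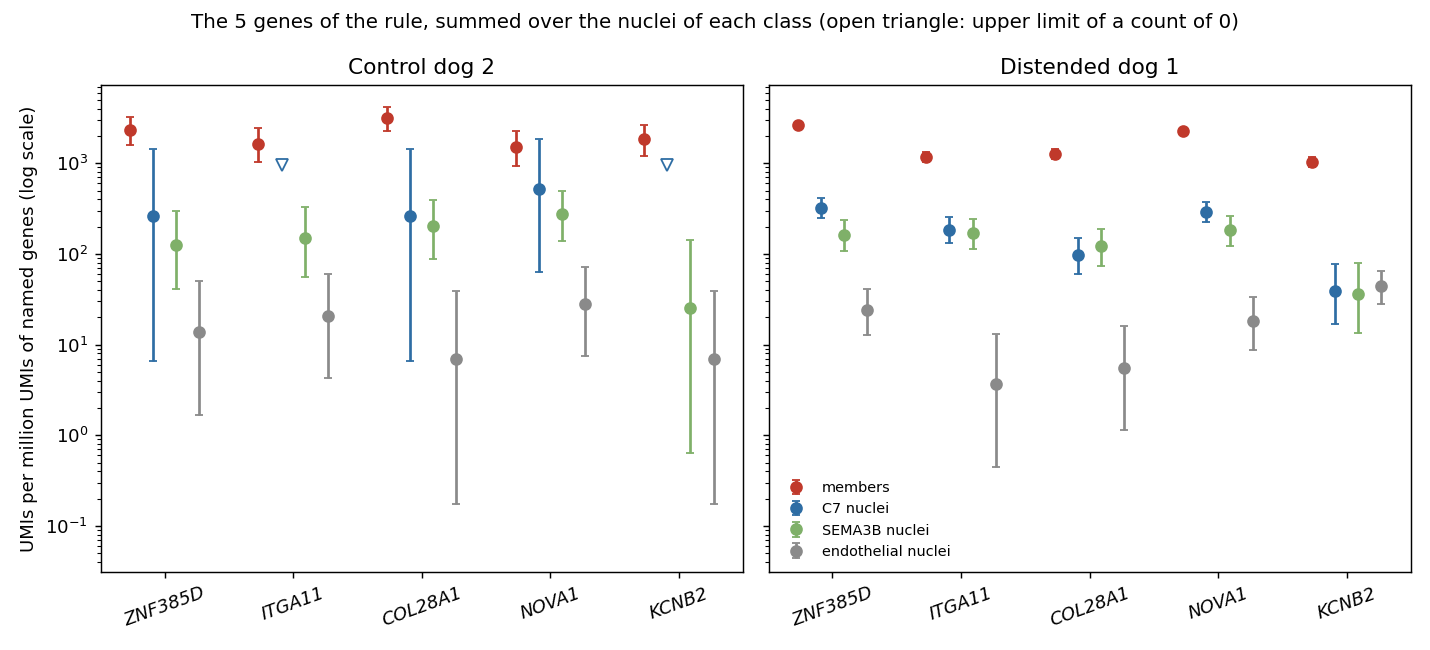
CPM (log axis) for the 5 genes of the rule in members, C7, SEMA3B and endothelial nuclei of control dog 2 (left) and distended dog 1 (right); points are sums over the nuclei of a class and bars exact Poisson 95% intervals. Members are highest for every gene because the rule selects them so, and KCNB2 is near 40 CPM in the 3 other classes of distended dog 1.

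The sum over the 5 genes had a median of 4 and a maximum of 48 among members. Just inside the threshold lay 65 members with a sum of 2. Just outside lay 71 nuclei with a sum of 1 and no UMI of a competing set, and 123 nuclei with a sum of at least 2 that did not exceed every competing sum. The fibroblast transcript FNDC1 stood at 2104 CPM in the members with a sum of 2 and at 2338 in all members, against 313 and 1054 in the 2 groups just outside. FBN1, which encodes the microfibril protein fibrillin-1, stood at 2794, 4142, 1529 and 2306 CPM in the same order. Endothelial PTPRB was at 743 CPM in the 123 nuclei of mixed sums, against 28.3 in all members, a gene the rule used. Many members showed a UMI of a competing fibroblast set: 158 (48.3%) had none of the C7 set and 138 (42.2%) none of the SEMA3B set, whereas 315 (96.3%) had none of the endothelial set.

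To see how the 5 genes go together, each was left out of the rule in turn and then read in the nuclei chosen by the other 4. In distended dog 1, ZNF385D was found in 57.7% of 222 nuclei so chosen (95% interval 50.9 to 64.2%), against 20.9% of C7 nuclei, 16.3% of SEMA3B nuclei and 1.63% of endothelial nuclei. NOVA1 was found in 52.7% (46.2 to 59.2%), against 18.8%, 14.0% and 1.81%. ITGA11 was found in 46.6% (40.3 to 53.0%), against 12.3%, 14.7% and 0.363%. Each of these genes thus marked the nuclei selected by its partners more often than the other fibroblasts, and the other fibroblasts more often than endothelium. COL28A1 reached 37.2% (31.1 to 43.6%), against 6.33%, 10.8% and 0.544%. KCNB2 had the lowest share in the chosen nuclei, with 29.6% (24.2 to 35.5%) against 2.36%, 2.69% and 2.18%. Its intervals in the other fibroblasts overlapped that in endothelium. Median depths in distended dog 1 were 602.5 to 638.5 UMIs in these nuclei and 738 in the endothelial ones, so the endothelial shares were read at greater depth. These nuclei were among those whose clustering supplied the genes, so the shares describe the set and are no test of it.

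The same reading in control dog 2 rested on 24 to 32 nuclei. COL28A1 was found in 54.2% of them (32.8 to 74.4%), ZNF385D in 37.0% (19.4 to 57.6%), ITGA11 in 25.9% (11.1 to 46.3%), KCNB2 in 22.6% (9.59 to 41.1%) and NOVA1 in 18.8% (7.21 to 36.4%). SEMA3B nuclei of that library gave 8.53%, 6.20%, 3.97%, 0.794% and 6.25%. Of the 5 genes, NOVA1 had intervals that overlapped between these classes (2.74 to 11.9% in SEMA3B nuclei). The 13 or 14 C7 nuclei of that library gave 15.4% for NOVA1, 7.69% for ZNF385D, 7.14% for ITGA11, 7.69% for COL28A1 and 0% for KCNB2. Their intervals were wide and overlapped those of the chosen nuclei for each gene.

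**Figure D2:**
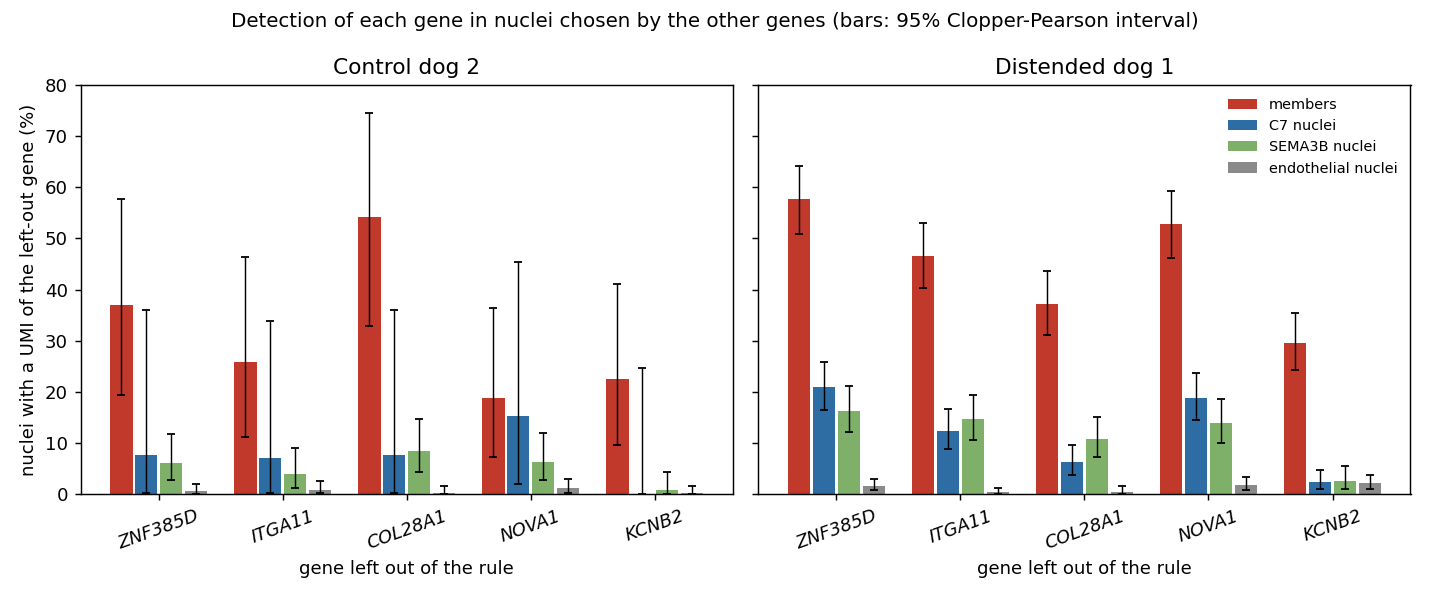
Share of nuclei (percent) with at least 1 UMI of a gene that was left out of the rule, in nuclei chosen by the other 4 genes (members) and in C7, SEMA3B and endothelial nuclei; bars are exact 95% intervals. In distended dog 1 each gene is found in 29.6 to 57.7% of the nuclei chosen without it and in under 21% of each other class.

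Clustering without the 19 genes of the rules placed 253 of the 327 members (77.4%) in 1 cluster of 602 nuclei. Its leading genes were SLC6A4, BMP7, PLPP4, DACT2, LMX1A, SEMA3E, WNT2, FNDC1, TMEM178B and ADAMTS5. Members made up 42.0% of that cluster, SEMA3B nuclei 16.1% and C7 nuclei 11.8%, so the cluster and the rule describe overlapping but unequal sets. The 2 libraries differed here. In distended dog 1, 238 members (82.4%) lay in that cluster and 31 (10.7%) in a cluster led by UNC5C and CCN4, while control dog 2 had 15 (42.9%) and 13 (37.1%) in the same places.

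The fibroblast label was checked against marker lists. The 14 fibroblast markers summed to 16048 CPM in members of distended dog 1 and 11847 in those of control dog 2, against 948 and 769 in endothelial nuclei. All 14 were detected, led by FBN1 with 954 UMIs, COL3A1 with 798, the ferritin receptor SCARA5 with 527 and the collagen-binding proteoglycan DCN with 496 in distended dog 1, whereas LUM, DPT and CDH11 gave 10, 4 and 3 UMIs. Blood endothelial markers summed to 141 and 272 CPM in distended dog 1 and control dog 2, with CDH5 and ERG at 0, against 7964 and 7231 in endothelial nuclei. Smooth muscle markers summed to 225 and 204 CPM, with ACTA2 and CNN1 at 0. Pericyte markers summed to 353 CPM in members of distended dog 1, against 485 in C7, 473 in SEMA3B and 227 in all other nuclei. Lymphatic endothelial markers summed to 327 CPM, against 122 in C7, 1139 in SEMA3B and 2301 in endothelial nuclei. The defining genes RGS5, NOTCH3, PROX1 and CCL21 were at 0 in members, but 4 of 7 pericyte and 6 of 8 lymphatic markers were detected. Only 2 of the 7 pericyte markers reached 20 UMIs over all nuclei of both libraries, against 7 of the 8 lymphatic ones. The zeros of RGS5 and NOTCH3 therefore do not set members apart from other nuclei. The part of pericyte or lymphatic RNA in members was not tested.

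Because COL28A1, NOVA1 and KCNB2 are known from nerve, nerve lists were read too. Of 13 Schwann cell markers, 11 were at 0 in members, including S100B and SOX10, and the list gave 10 UMIs in distended dog 1 and 1 in control dog 2. This was 44.2 and 68.1 CPM, against 52.7 and 52.3 in all other nuclei of those libraries. Neuron markers gave 3 and 0 UMIs, or 13.2 and 0 CPM, against 25.2 and 95.3. Only 1 of the 13 Schwann cell and 1 of the 8 neuron markers reached 20 UMIs over all nuclei of both libraries. The zeros therefore do not set members apart from other nuclei. A list of perineurial and endoneurial genes summed to 830 CPM in members of distended dog 1, against 514 in C7, 594 in SEMA3B and 458 in endothelial nuclei. NTN4, a secreted netrin, with 107 UMIs, and OSR2, a transcription factor, with 78 made up nearly all of it, and 6 of its 10 genes, among them ITGB4 and SOX9, were at 0.

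One member of control dog 2 carried markers of another cell type. All 21 neutrophil-marker UMIs of these members lay in 1 nucleus (12 of S100A8, 4 of S100A9, 4 of CSF3R and 1 of S100A12). It held 1542 of the library's 14687 member UMIs (10.5%), with 2 UMIs of ITGA11 and 1 of COL28A1. Results that depend on it are given with and without it. SEMA3B nuclei of that library held 31 neutrophil-marker UMIs, and lymphocyte markers gave 7 UMIs in its members and 3 in those of distended dog 1. Members of distended dog 1 had 2 neutrophil-marker UMIs in all. Cell cycle genes gave 84 UMIs in those members, 52 of them in 1 nucleus, which leaves 32 UMIs in the others, against 25 and 29 in C7 and SEMA3B nuclei without their highest nucleus.

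Members were next set against all other nuclei of the same library, where more features were lower in members than higher. Of 9513 features outside the rule with at least 20 UMIs over both libraries, 310 (3.26%) were at least 2-fold higher in members of both libraries and 1517 (15.9%) at least 2-fold lower; a feature with no UMI in the 35 members of control dog 2 counts among the lower ones. In distended dog 1 alone the counts were 745 (7.83%) and 2034 (21.4%). No test is given, since the genes of the rule came from clustering these nuclei. The 50 genes highest in distended dog 1 were read in control dog 2, where 45 were again above 1 and 40 at least 2-fold higher, with a median ratio of 3.96. Over all 2188 genes eligible for that reading the shares were 49.4% and 19.3%.

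The leading genes included some guidance cues and a morphogen. Of 32 axon guidance and adhesion genes 8 were at least 2-fold higher than in the other nuclei of both libraries. Another 7 were lower, among them SEMA6A, NRP2 and PLXNA4. Of 22 TGF-beta and BMP genes 1 (TGFB2) was higher and 6 lower. Over all 9513 features 3.26% were higher and 15.9% lower. The guidance list thus lay above the share of higher features and the TGF-beta and BMP list near it, and both lay above the share of lower features. SEMA3C, a secreted semaphorin, had 298 UMIs in members of distended dog 1 (1316 CPM, in 46.0% of nuclei) and 18 in those of control dog 2 (1226 CPM). Its level was 6.88 times that of the other nuclei in distended dog 1 (5.79 to 8.19) and 15.9 times in control dog 2 (8.20 to 30.4). SEMA3E, of the same family, had 36 UMIs in distended dog 1 (6.32 times, 3.81 to 10.5), and its 5 UMIs in control dog 2 lay in 1 nucleus. BMP7, a ligand of the bone morphogenetic protein branch of TGF-beta signalling, had 26 UMIs in distended dog 1, 9.12 times the level of the other nuclei (4.71 to 18.2), and 3 UMIs in 1 nucleus in control dog 2. These 3 cues were thus higher in members of distended dog 1, with few counts behind SEMA3E and BMP7 in control dog 2.

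Intracellular signalling genes followed. ARHGAP24, which switches off the small GTPase Rac, had 334 UMIs in distended dog 1 and 26 in control dog 2, 7.30 times (6.18 to 8.62) and 8.47 times (5.17 to 13.5) the level of the other nuclei. It was present in 49.8% of members of distended dog 1. PDE4B, a phosphodiesterase that degrades cyclic AMP, had 215 and 11 UMIs, with ratios of 6.29 (5.15 to 7.68) and 7.38 (3.37 to 15.0). The transcription factor CREB5 had 362 and 18 UMIs, with ratios of 6.41 (5.50 to 7.48) and 4.38 (2.49 to 7.32). SOX5, another transcription factor, had 290 and 16 UMIs, with ratios of 3.99 (3.42 to 4.65) and 9.08 (4.74 to 16.6).

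Several matrix genes were also higher, of which FNDC1 and MFAP5 stood among the 20 genes named by rank and FBN1, DCN and CCDC80 only in the set defined after values were seen. FNDC1, a protein with fibronectin type III domains, had 541 UMIs in distended dog 1 (2389 CPM, in 63.3% of members) and 37 in control dog 2 (2519 CPM, in 54.3%). It was 7.59 times (6.66 to 8.66) and 5.89 times (3.99 to 8.52) the level of the other nuclei. FBN1 had 954 and 57 UMIs, 4.19 times (3.85 to 4.56) and 6.75 times (4.93 to 9.12). MFAP5, a microfibril-associated glycoprotein that binds fibrillin, had 92 and 7 UMIs, 5.68 times (4.20 to 7.67) and 5.35 times (1.98 to 12.5). The 2 microfibril genes thus stood above the other nuclei in both libraries. DCN was 4.44 times (3.94 to 5.00) and 6.09 times (2.82 to 12.1), and the secreted matrix protein CCDC80 was 3.87 times (3.54 to 4.24) and 6.84 times (4.80 to 9.57).

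The 20 genes named by rank were TMEM178B, FGL1, DACT2, BMP7, THBS2, C28H10orf90, ARAP2, PLPP4, SLC6A4, ARHGAP24, HS3ST1, SEMA3C, PAMR1, CD38, SEMA3E, PDE4B, FNDC1, RGS6, MFAP5 and CCDC85A. Their ratios in distended dog 1 ran from 5.61 to 16.8. When members had to lack every gene of the competing sets, which left 60 members in distended dog 1 and put the others among the remaining nuclei, the ratios ran from 0.919 to 7.49. They were lower by over 1.5-fold for 18 of the 20 genes, and 13 kept an interval above 1. SEMA3C became 2.97, FNDC1 3.71, THBS2 2.09 and FGL1 1.16, and CD38 turned to 0.919 on 1 UMI. For 4 of them (TMEM178B, FGL1, PLPP4 and the serotonin transporter gene SLC6A4) members of control dog 2 held 0 UMIs, and for 3 more (DACT2, C28H10orf90 and ARAP2) 1 UMI, so their place rests on distended dog 1 and on the count added in ranking. With at least 5 UMIs asked for in members of control dog 2, a condition set after these values were seen, 20 genes had ratios of 3.86 to 7.59 in distended dog 1 and 4.38 to 55.4 in control dog 2. These included the genes described above other than BMP7, and also PTX3, ADAMTSL1, RRAS2, PCSK6, EBF2, GRIA1, KRT7 and MEDAG.

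The same genes were then read against the 2 other fibroblast classes. They had been ranked against all other nuclei, which include these classes, so high ratios in distended dog 1 are in part built in and describe the genes only. All 20 genes named by rank were at least 2-fold higher than in C7 nuclei and in SEMA3B nuclei of distended dog 1, with ratios of 2.50 to 27.0 and 2.55 to 17.5. Among the 20 with more counts, 16 were so against C7 nuclei and 16 against SEMA3B nuclei. DCN (1.91 times), SOX5 (1.48), GRIA1 (1.61) and MEDAG (1.79) were the exceptions against C7 nuclei, and CCDC80 (1.65), MEDAG (1.47), KRT7 (1.55) and PTX3 (1.23) against SEMA3B nuclei. Over all features, 331 of 4405 (7.51%) were at least 2-fold higher and 323 (7.33%) at least 2-fold lower than in C7 nuclei of distended dog 1, and 365 of 4456 (8.19%) and 346 (7.76%) against SEMA3B nuclei. In both libraries at once the counts were 154 (3.5%) and 87 (1.98%) against C7 nuclei, of which control dog 2 had 13 with 3852 UMIs in all, and 142 (3.19%) and 179 (4.02%) against SEMA3B nuclei. The counts of list genes given below for both libraries are to be read beside these shares.

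Elastic fibre genes lay on both sides. ELN, which encodes elastin, the core of the elastic fibre, had 252 UMIs in members of distended dog 1, 699 in C7 nuclei and 520 in SEMA3B nuclei, or 1113, 3425 and 3152 CPM. Its ratio was 0.32 against C7 nuclei (0.28 to 0.38) and 0.35 against SEMA3B nuclei (0.30 to 0.41). In control dog 2 it had 15, 15 and 103 UMIs, with ratios of 0.26 (0.12 to 0.58) and 0.39 (0.21 to 0.68). FBN1, whose microfibrils form the scaffold of that fibre, lay on the other side, at 4213, 1808 and 2067 CPM in distended dog 1, with ratios of 2.33 (2.06 to 2.63) and 2.04 (1.80 to 2.31). Its ratio against SEMA3B nuclei in control dog 2 was 2.74 (1.86 to 4.04). MFAP5 went with FBN1 in distended dog 1, at 3.77 (2.35 to 6.30) and 3.53 (2.14 to 6.12), while FBLN1, the fibulin that joins elastic fibres, was lower, at 0.60 (0.48 to 0.76) and 0.65 (0.51 to 0.83). Of 10 elastic fibre genes with enough counts against SEMA3B nuclei, FBN1 and MFAP5 were at least 2-fold higher in both libraries and ELN at least 2-fold lower; the list's median log2 ratio in distended dog 1 was -0.19, against -0.01 over all features. Against C7 nuclei ELN was lower in both libraries and none of the 10 higher, with a median of -0.64: FBN1 and MFAP5 had ratios of 1.36 (0.705 to 2.87) and 0.92 (0.17 to 9.06) in control dog 2.

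Fibrillar collagens lay closer to 1 in distended dog 1. COL3A1 had 798, 855 and 665 UMIs in members, C7 and SEMA3B nuclei of distended dog 1, with ratios of 0.84 (0.76 to 0.93) and 0.87 (0.79 to 0.97). COL1A2 gave 0.84 (0.72 to 0.98) and 0.86 (0.73 to 1.01), and COL5A1 gave 0.62 (0.50 to 0.76) and 0.64 (0.51 to 0.79). COL5A2 was the other way, at 1.59 (1.37 to 1.84) and 1.76 (1.49 to 2.08). None of the 6 fibrillar collagens with enough counts was 2-fold different in both libraries against either class, beside 1.98 to 4.02% of all features in each direction, and 1 was 2-fold higher than in C7 nuclei of distended dog 1 alone. In control dog 2 COL3A1 had a ratio of 0.40 (0.22 to 0.68) against SEMA3B nuclei. ITGB1, the partner chain of ITGA11, had 46, 45 and 26 UMIs, with ratios of 0.92 (0.60 to 1.42) and 1.29 (0.78 to 2.17).

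FN1, THBS2 and NID1, named here after their values were seen, were higher in members. FN1, which encodes fibronectin, had 323 UMIs against 90 in C7 and 110 in SEMA3B nuclei of distended dog 1, with ratios of 3.23 (2.55 to 4.13) and 2.14 (1.72 to 2.68). The matricellular gene THBS2 had 80, 16 and 12 UMIs, with ratios of 4.51 (2.61 to 8.26) and 4.86 (2.63 to 9.79). NID1, a linker of basement membranes, had 35, 10 and 8, with ratios of 3.15 (1.53 to 7.14) and 3.19 (1.45 to 7.95). These 3 genes passed 2-fold against SEMA3B nuclei in both libraries, with 10, 3 and 3 UMIs in members of control dog 2. Of the 13 proteoglycan and matricellular genes with enough counts in that comparison, DCN, FN1 and THBS2 were higher and OMD lower, and of 8 laminin and basement membrane genes NID1 was higher. Against C7 nuclei FN1 and THBS2, and NID1, were again the ones higher, of 13 and 8.

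Some genes of the ADAMTS family were higher in members and others lower. ADAMTS5, which cleaves the proteoglycans aggrecan and versican, had 205 UMIs in members against 67 and 50, with ratios of 2.76 (2.08 to 3.69) and 2.99 (2.18 to 4.16). ADAMTS6 had 66 against 11 and 13, at 5.41 (2.83 to 11.4) and 3.70 (2.02 to 7.31), and ADAMTSL1, a related protein without the protease domain, had 151 against 57 and 46. Of 12 protease and inhibitor genes, these 3 were at least 2-fold higher than in SEMA3B nuclei of both libraries and none was lower. Over all features 3.19% were higher and 4.02% lower. The list had a median log2 ratio of 0.71 in distended dog 1. Against C7 nuclei ADAMTS6 and ADAMTSL1 were higher in both libraries and ADAMTS19 and ADAMTSL3 lower, the last pair with 0 and 1 UMIs in members of control dog 2. ADAMTS5 had a ratio of 1.05 there, on 4 UMIs against 1.

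AEBP1, SRPX and CRISPLD2, taken from the genes ranked as lowest against C7 or SEMA3B nuclei and not from a list, had lower levels. AEBP1, a collagen-binding secreted protein, had 68 UMIs in members against 270 in C7 and 226 in SEMA3B nuclei of distended dog 1, with ratios of 0.23 (0.17 to 0.30) and 0.22 (0.16 to 0.29). SRPX had 26 against 156 and 93, with ratios of 0.15 (0.10 to 0.23) and 0.20 (0.13 to 0.32). CRISPLD2, a secreted glycoprotein, had 59 against 221 and 125, with ratios of 0.24 (0.18 to 0.32) and 0.34 (0.25 to 0.47). AEBP1 was lower than in SEMA3B nuclei of control dog 2 as well (0.37, 0.16 to 0.74), as was CRISPLD2 (0.38, 0.12 to 0.99), while the single SRPX UMI there left its interval open above 1.

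**Figure D3:**
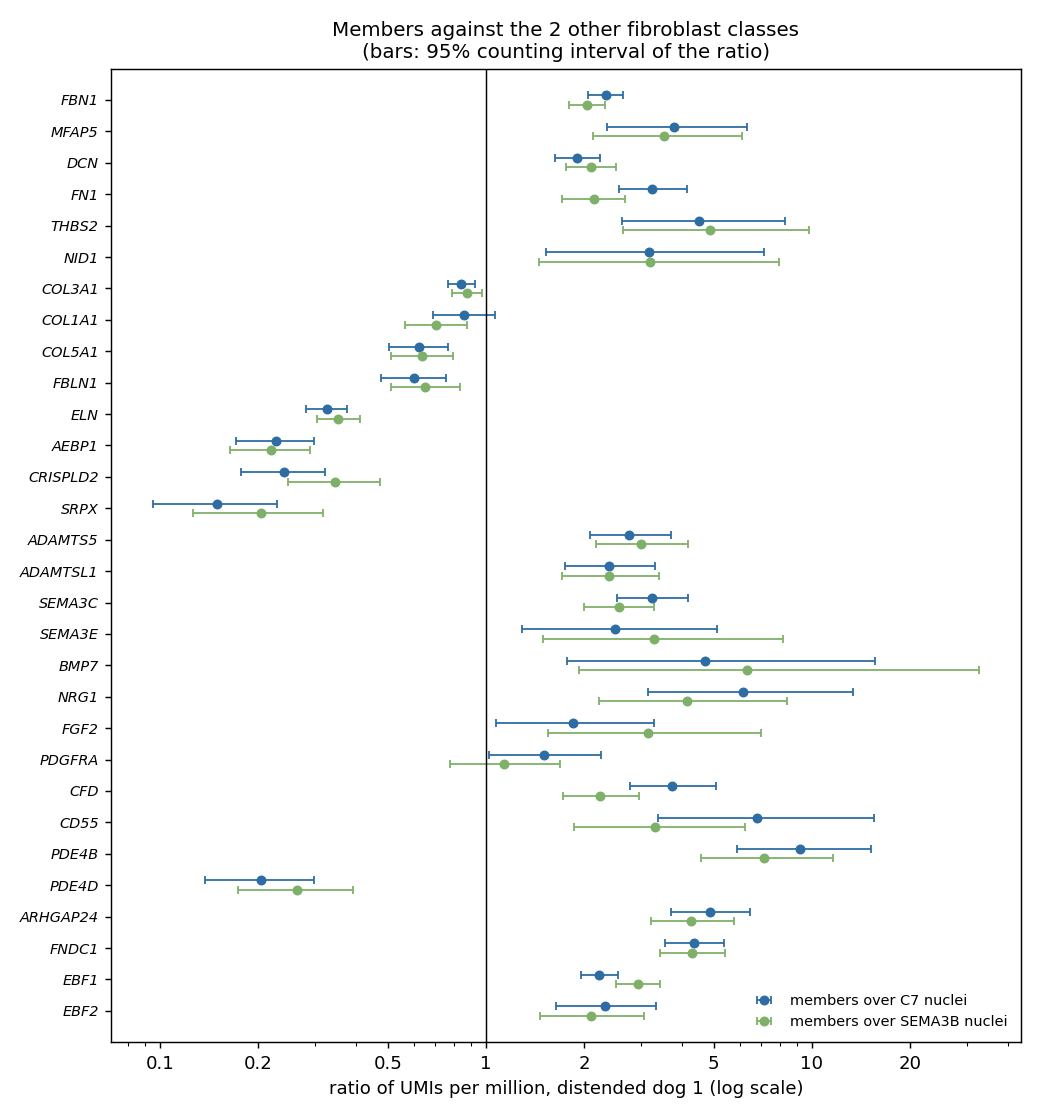
Ratio of CPM (log axis) in members over C7 nuclei and over SEMA3B nuclei of distended dog 1 for 30 genes picked for display after their values were seen; points are ratios of summed counts and bars 95% counting intervals. FBN1, MFAP5, FN1 and the ADAMTS genes lie above 1, ELN, AEBP1, CRISPLD2 and SRPX below it, and both phosphodiesterase genes far from 1 on opposite sides.

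The cyclic AMP phosphodiesterases split. PDE4B had 215 UMIs in members of distended dog 1 against 21 in C7 and 22 in SEMA3B nuclei, with ratios of 9.23 (5.88 to 15.2) and 7.12 (4.58 to 11.6). PDE4D, its close relative, had 35 against 154 and 97, with ratios of 0.20 (0.14 to 0.30) and 0.26 (0.17 to 0.39). In control dog 2 PDE4B had 11 UMIs against 7 in SEMA3B nuclei, a ratio of 4.23 with an interval above 1, and PDE4D had 2 in members. Members of distended dog 1 thus held more PDE4B and less PDE4D than both other fibroblast classes.

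Few secreted signals and receptors differed in both libraries, and those named here were picked from their lists. Few features differed over all genes as well. The shares higher and lower were 3.5% and 1.98% against C7 nuclei and 3.19% and 4.02% against SEMA3B nuclei. Counts of 0 or 1 in lists of 9 to 15 genes are therefore no result about these genes. Of 15 growth factor and receptor genes with enough counts, none was 2-fold higher or lower than in C7 nuclei of both libraries. Against SEMA3B nuclei 1 of 15 (FGF2) was higher and none lower. NRG1, a ligand of ERBB receptors, had 68 UMIs in members of distended dog 1 against 10 and 12, with ratios of 6.13 (3.14 to 13.4) and 4.13 (2.22 to 8.38), and 0 UMIs in members of control dog 2. FGF2, a fibroblast growth factor, had 43 against 21 and 10, with ratios of 1.85 (1.07 to 3.27) and 3.13 (1.55 to 6.99). The receptor gene PDGFRA, a general fibroblast marker, had 72 against 43 and 46, with ratios of 1.51 (1.02 to 2.26) and 1.14 (0.78 to 1.69). Of 13 TGF-beta and BMP genes, TGFBR1 and SMAD2 were 2-fold higher than in C7 nuclei of both libraries, each with at most 15 UMIs in members, and none of 14 was 2-fold different from SEMA3B nuclei in both. Of 9 WNT genes, none was 2-fold higher than in C7 nuclei of both libraries and 2 (RSPO3 and DKK3) were lower. Against SEMA3B nuclei none of 10 was higher and 1 (DKK3) was lower. WNT2 had 37 UMIs in members of distended dog 1 against 13 and 18. DKK3, a secreted WNT modulator, had 10 against 23 and 19, and 0 in members of control dog 2, against 1 and 4.

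Complement and surface genes added to the contrast. CFD, which encodes complement factor D, had 231 UMIs in members of distended dog 1 against 56 and 75, with ratios of 3.72 (2.77 to 5.07) and 2.24 (1.72 to 2.95). CD55, an inhibitor of complement on the cell surface, had 68 against 9 and 15, with ratios of 6.81 (3.38 to 15.5) and 3.30 (1.87 to 6.22). PI16, a marker of adventitial fibroblasts, had 41 against 7 and 4 and was at 0 in members of control dog 2. C7, a gene of the competing rule, had 8 UMIs against 226 in C7 nuclei by construction.

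Ion channels outside the rule lay on both sides, with more of them lower. The potassium channel list had 3 genes with enough counts against C7 nuclei besides KCNB2: KCNT2, KCNMA1 and KCNIP1, a channel-binding protein. All 3 were at least 2-fold lower in both libraries, with 3, 0 and 7 UMIs in members of control dog 2. Against SEMA3B nuclei 1 of 3, KCNN3, was lower and none higher. Of 11 other ion channels, 1 (GRIA3) was at least 2-fold higher and 1 (CACNA1C) lower than in C7 nuclei of both libraries, and 0 and 4 against SEMA3B nuclei. Over all features 1.98% were lower than in C7 nuclei and 4.02% lower than in SEMA3B nuclei. KCNMB2, an accessory subunit of potassium channels outside these lists, was higher, with 17 UMIs in distended dog 1 against 2 in C7 and 2 in SEMA3B nuclei. KCNMA1, the large-conductance calcium-activated channel, had 2 UMIs in members of distended dog 1 against 57 in C7 nuclei (0.03, 0.004 to 0.12). CACNA1C, the pore of the L-type calcium channel, had 122 against 250 and 210, with ratios of 0.44 (0.35 to 0.55) and 0.42 (0.34 to 0.53), and in control dog 2 it had 1 against 3 and 33. Contractile SYNPO2 had 8 UMIs against 52 and 27. Smooth muscle markers in the same nuclei summed to 225 CPM in members, 1083 in C7 and 994 in SEMA3B nuclei of distended dog 1. The part of smooth muscle RNA in these channel values was not tested.

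Transcription factors of the limb and positional list were split. Of 18 with enough counts against SEMA3B nuclei, 2 (EBF1 and EBF2) were at least 2-fold higher in both libraries and 2 (NR2F2 and RUNX1) lower, with a median log2 ratio of -0.07 in distended dog 1, and against C7 nuclei 1 of 17 (EBF1) was higher and none lower. EBF1 had 822 UMIs in members of distended dog 1 against 332 and 205, with ratios of 2.23 (1.96 to 2.54) and 2.92 (2.50 to 3.42), and in control dog 2 its ratio against SEMA3B nuclei was 4.32 (2.75 to 6.89). EBF2 had 121 against 47 and 42, with ratios of 2.32 (1.64 to 3.32) and 2.10 (1.47 to 3.06). Of 10 splicing regulators other than NOVA1, none was 2-fold different in both libraries against either class, a count no different from what the shares of 1.98 to 4.02% over all features would give. CELF2, one of these regulators, had 633 against 386 and 235, with ratios of 1.48 (1.30 to 1.68) and 1.96 (1.69 to 2.29).

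Members with many of the 5 genes were compared with members that had few, within distended dog 1. The 39 members with 1 gene had FNDC1 at 2556 CPM (1931 to 3319), the 105 with 2 at 1750 (1446 to 2099) and the 145 with 3 or more at 2669 (2404 to 2956). FBN1 stood at 3468 (2733 to 4341), 4344 (3857 to 4876) and 4268 (3930 to 4627). EBF1 ran from 2464 (1851 to 3216) through 3002 (2599 to 3449) to 4116 (3785 to 4469), while CCDC80 stood at 4016, 3575 and 3566. The members with 1 gene therefore had FNDC1, FBN1 and CCDC80 at levels whose intervals overlapped those of members with 3 or more, and EBF1 at a lower level. Their median depths were 467, 536 and 756 UMIs.

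Distended dog 1 was next set against control dog 2 within members. This is 1 library against 1, with 226451 against 14687 UMIs, so values are given without a test. Of 307 features with a mean level of at least 500 CPM over the 2 libraries, 33 (10.7%) were at least 2-fold higher in distended dog 1 and 36 (11.7%) at least 2-fold higher in control dog 2, and the median log2 ratio was -0.03. The 4 dominant features took 60.2% of the UMIs of members in control dog 2 and 30.9% in distended dog 1, counted together with reads of no gene. Keeping them in the totals shifts every log2 ratio by 0.79 and turns the split into 48 higher and 2 lower, so directions here are relative to the named genes. The 2 libraries also placed members in different clusters, as given above.

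Genes lower in distended dog 1 included stress and adhesion genes. IER3, an immediate early gene, had 95 UMIs (420 CPM) in members of distended dog 1 and 29 (1975 CPM) in those of control dog 2. Its level in control dog 2 was 4.71 times as high (2.99 to 7.20). ICAM1, a leukocyte adhesion molecule, had 62 and 18 UMIs, 4.48 times as high in control dog 2 (2.49 to 7.67), and NFKBIA, the inhibitor of NF-kB that NF-kB itself induces, had 120 and 18, 2.31 times. The proteoglycan gene VCAN had 349 and 66 UMIs, 2.92 times (2.21 to 3.80), and the large scaffold gene AHNAK 1215 and 197, 2.50 times (2.14 to 2.91). SOD2, the mitochondrial superoxide dismutase, had 22 and 16 UMIs, 11.2 times as high in control dog 2 (5.50 to 22.4). Of those 16 UMIs, 10 lay in the nucleus with neutrophil markers, without which the ratio was 4.70 (1.56 to 11.9). The same removal changed IER3 to 5.26, ICAM1 to 4.72 and ZSWIM6 from 6.17 to 4.74.

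Genes higher in distended dog 1 were led by ZBTB16, a zinc finger transcription factor. It had 752 UMIs in members of distended dog 1 and 14 in those of control dog 2, 3.48 times as high (2.06 to 6.40). COL3A1 had 798 and 16 UMIs (3.23, 1.98 to 5.69) and DCN 496 and 11 (2.92, 1.62 to 5.90). FOXO3, a transcription factor restrained by insulin signalling, had 201 and 3 (4.35, 1.47 to 21.3). Matrix transcripts COL3A1 and DCN were thus higher in members of distended dog 1, and VCAN lower. FN1 had 323 and 10 UMIs, a ratio of 2.09 (1.12 to 4.41).

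Among the list genes with enough counts, 3 of 8 immediate early genes were at least 2-fold lower in distended dog 1 (FOSB, JUNB and IER3) and none higher. FOSB had 83 and 17 UMIs, with a ratio of distended dog 1 to control dog 2 of 0.32 (0.19 to 0.57), and JUNB had 85 and 17 (0.32, 0.19 to 0.58). Of 3 NF-kB and cytokine genes, NFKBIA and ICAM1 were lower and NFKBIZ higher, at 2.14 with an interval of 0.90 to 6.68. IL6, CXCL8 and PTGS2 were at 0 in members of both libraries.

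These ratios were set beside those of other nuclei of the same 2 libraries. Of the 10 genes named as higher in distended dog 1, all 10 lay on the same side in SEMA3B nuclei and 4 of them (PLXDC2, DCN, MAN1A1 and FOXO3) were 2-fold higher there. In endothelial nuclei 8 lay on the same side and 2 were 2-fold higher, while ZBTB20 and ZNF638 were on the other side. Of the 10 named as lower, 9 were at least 2-fold lower in SEMA3B nuclei, HNRNPU being the exception at 0.56, and 6 in endothelial nuclei. The shares of all features that passed 2-fold in SEMA3B and endothelial nuclei are not given here. These counts therefore cannot be set against a shift of the whole library. IER3, for example, had ratios of 0.21 in members, 0.21 in SEMA3B nuclei and 0.17 in endothelial nuclei. VCAN and AKAP12 were lower in members (0.34 and 0.31) and in SEMA3B nuclei (0.38 and 0.38) but stood at 1.06 (0.57 to 2.12) and 1.40 in endothelial nuclei. A class by condition term could not be tested with 1 library for each condition; of 1059 features with counts in members and C7 nuclei of both libraries, 463 (43.7%) had ratios that differed at least 2-fold between the classes, with 13 C7 nuclei in control dog 2.

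**Figure D4:**
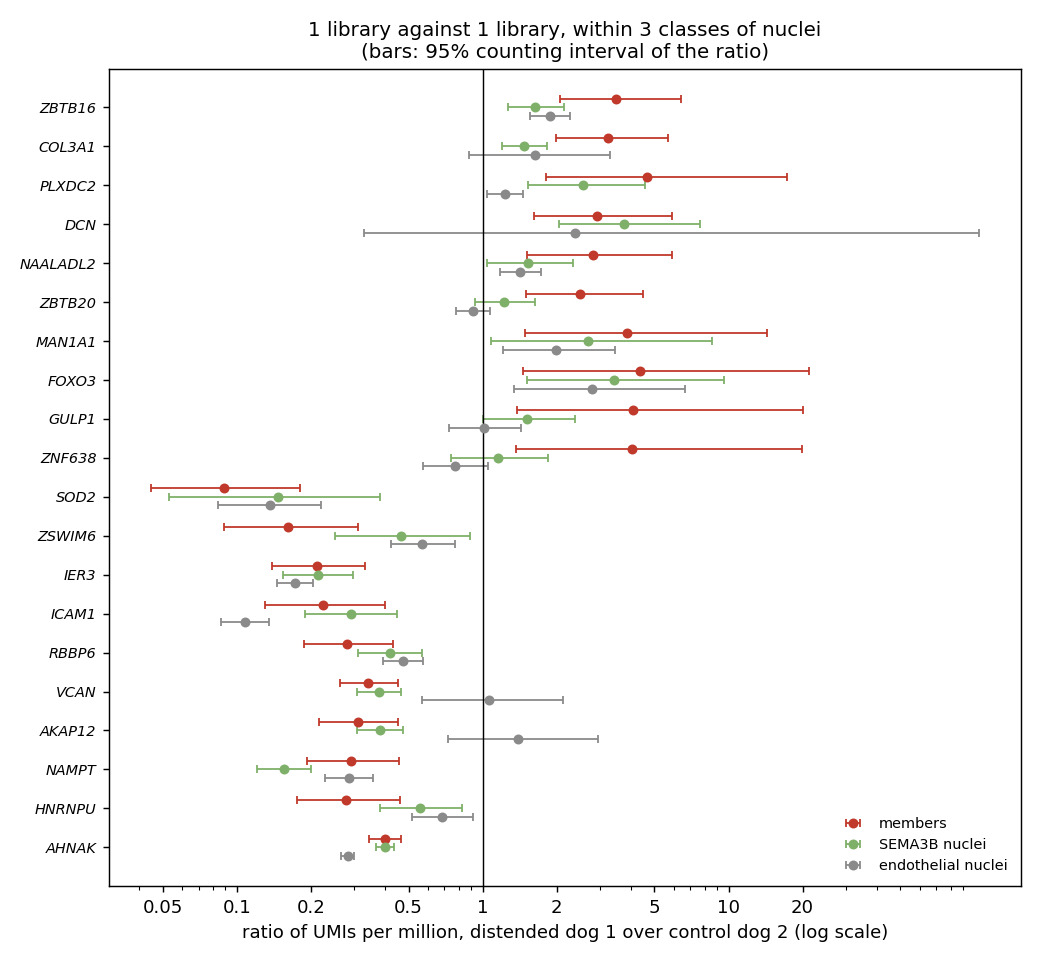
Ratio of CPM in distended dog 1 over control dog 2 (log axis) for the 10 named genes in each direction, within members, SEMA3B nuclei and endothelial nuclei; points are ratios of summed counts and bars 95% counting intervals. Most genes named as lower in members, such as IER3 and ICAM1, are also lower in the 2 other classes, whereas VCAN and AKAP12 are near or above 1 in endothelial nuclei.

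The grafted vein was not used by the rule. With the same criterion, 190 of its 2705 nuclei (7.02%, 6.09 to 8.05%) were selected, at a median of 2832 UMIs, but they differed from the members in make-up. Only 6 UMIs of ITGA11 and 1 of COL28A1 were found in them, against 374 of ZNF385D and 269 of NOVA1. At least 3 of the 5 genes were found in 3 of the 190 (1.58%) and in 145 of the 289 members of distended dog 1 (50.2%), and a single gene in 112 (58.9%) and 39 (13.5%). After thinning to 609 UMIs, 45 of 2569 graft nuclei (1.75%, 1.28 to 2.34%) met the rule and 133 of 868 nuclei of distended dog 1 (15.3%). Nuclei selected in the graft therefore rarely carried the combination of genes that defines the members.

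Whole-library levels need no rule. Over all kept nuclei, ITGA11 stood at 261 CPM in distended dog 1 (391 UMIs), 156 in control dog 2 (53 UMIs), 9.99 in control dog 1 (5 UMIs) and 0.642 in the graft (7 UMIs, 0.258 to 1.32), and it had no UMI in distended dog 2, for which the exact interval reaches up to 13.2 CPM. COL28A1 stood at 238, 206, 4.00 and 7.15 CPM in distended dog 1, control dog 2, control dog 1 and distended dog 2, and at 1.47 (0.839 to 2.38) in the graft. The ITGA11 and COL28A1 levels of the graft, the deepest library with 10899093 UMIs, were thus far below those of distended dog 1 and control dog 2, while the COL28A1 interval overlapped those of control dog 1 and distended dog 2. ZNF385D stood at 530, 150, 16.0, 21.5 and 53.2 CPM in distended dog 1, control dog 2, control dog 1, distended dog 2 and the graft. NOVA1 stood at 445, 153, 32.0, 25.0 and 66.8, and KCNB2 at 191, 97.1, 5.99, 7.15 and 5.96. ZNF385D and NOVA1 were thus higher in the graft than in control dog 1 and distended dog 2, and the KCNB2 intervals overlapped. A change in the number of cells and a change in RNA per nucleus cannot be told apart in whole-library levels.

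The leading genes were read in the same way. They had been chosen as high in members, most of which lay in distended dog 1. Lower levels in the graft than in that library are therefore in part built in and describe the genes only. The share of all features lower in the graft is not given here. Of the 20 genes named by rank, 19 were lower over all graft nuclei than over those of distended dog 1, PDE4B being the exception. For 10 of them (DACT2, BMP7, THBS2, C28H10orf90, SLC6A4, SEMA3E, FNDC1, RGS6, MFAP5 and CCDC85A) the graft level was under 10% of that in distended dog 1. Of the 20 genes with at least 5 UMIs in members of control dog 2, 17 were lower in the graft than in distended dog 1. PDE4B, PTX3 and RRAS2 were higher. The graft and distended dog 1 are 1 library each, with no replicate for the comparison.

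**Figure D5:**
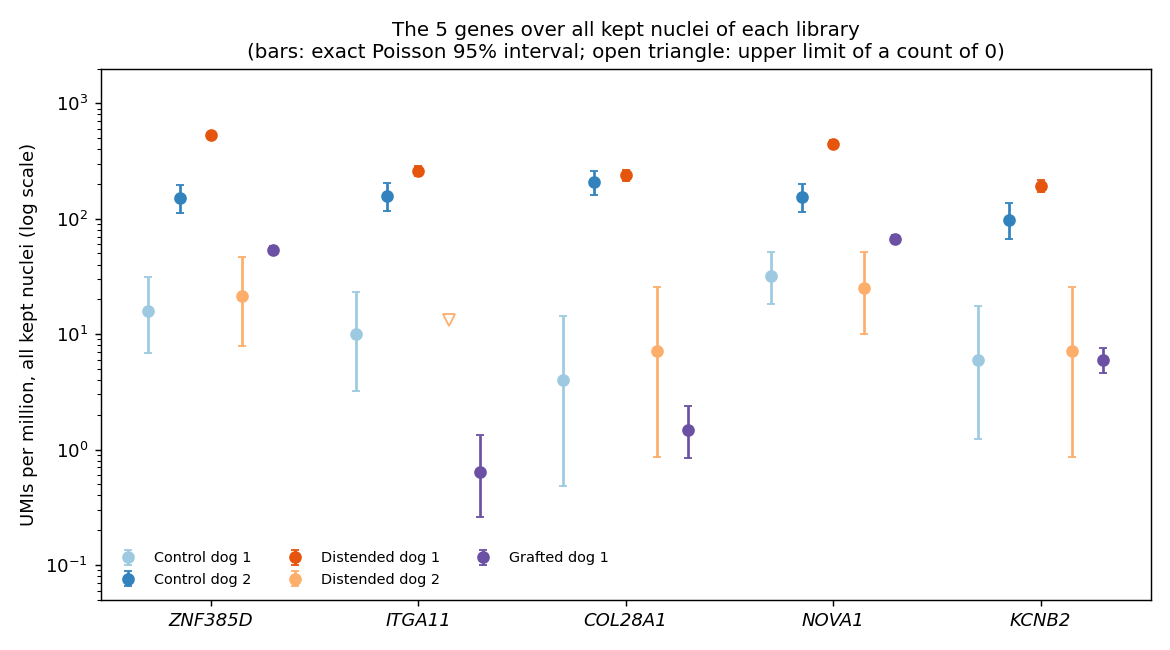
CPM of the 5 genes of the rule over all kept nuclei of each of the 5 libraries (log axis); bars are exact Poisson 95% intervals and the open triangle is the upper limit of a count of 0. Distended dog 1 is highest for every gene, control dog 2 is next, and ITGA11 and COL28A1 stand at 0.642 and 1.47 CPM in the graft.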

How the data were processed

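Single-nucleus 3′ gene expression was measured in 5 libraries. The authors deposited raw UMI counts, whole numbers by feature and barcode. Per the submitters' processing notes Cell Ranger 7.0.0 was used, and the genome build and annotation are not given in the sources used here. The 4 dominant features (LOC119877772 to LOC119877775) and 24 features that name no gene (0.588 to 11.5% of UMIs per library) were left out of totals and levels. Barcodes with at least 100 detected features were kept (773, 1041, 2108, 241 and 2705 of 1048, 1234, 2162, 242 and 2705). Total counts per library ran from 410604 to 11302558. Scrublet marked 29 of 6868 nuclei (0.422%), 2 of them members, too few to take as working, so none was removed.

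Counts were summed per library and class (Python 3.11.15, numpy 2.4.6, scipy 1.17.1) and given as CPM, with exact Poisson, Clopper-Pearson and conditional binomial intervals at 95%. Clustering used scanpy 1.11.5 (2000 variable genes, 20 components, 15 neighbours, resolution 0.8). Genes were named by the lower of the 2 libraries' ratios with 1 count added, among genes with at least 20 UMIs in members, and between conditions by the nearer bound of the ratio's interval. The planned tests across libraries could not be fitted, since 1 library per condition held at least 10 members. The members and lists were chosen with earlier results of these data known. All 19 genes of the rules were found in RefSeq's canine gene table.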

Additional observations from a re-analysis of the deposited data

How the results depend on the processing

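No paired analysis was possible because the 2 libraries with at least 10 members come from different dogs. Since each condition then has 1 library, edgeR, DESeq2, the replicate block, leaving out each library from the comparison of conditions in members and the class by condition term were not run. The difference in member share, 5.25 points, ran from -1.40 (without distended dog 1) to 11.9 points (without distended dog 2) when 1 library was left out. It was 0.734 points when members had to lack every competing gene, and 4.13 to 8.79 points at a sum of 3, with a minimum of 200 features, without marked doublets, thinned to 300 UMIs and as a share of fibroblast nuclei. The count of 310 features higher in members ran from 249 to 313 over its alternatives. Only 80 of those 310 were shared when competing genes had to be absent. Between conditions in members, the 33 higher and 36 lower features became 8742 and 2191 with no filter. With at least 20 UMIs over both libraries, a filter chosen after seeing the data, they became 769 and 297. The lower count was 2 with the dominant features kept and 95 when competing genes had to be absent. Without the member with neutrophil markers, also chosen after seeing the data, the counts were 28 and 43. The 463 of 1059 features that differed between classes became 769 of 1509 with no filter and 651 of 1893 with SEMA3B in place of C7 nuclei. When competing genes had to be absent, the ratio of CD38 in distended dog 1 turned from 6.42 to 0.919 on 1 UMI, 8 other named genes moved by more than their counting interval and 18 of 20 were lower by over 1.5-fold; fewer members, and former members among the other nuclei, are part of that alternative. Depth limits genes with few UMIs in the 35 members of control dog 2.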
